A study of Arabidopsis thaliana with 26 samples.

Results

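The 10 genes described here encode enzymes of the Calvin cycle of Arabidopsis thaliana and the small regulatory protein CP12. They were taken by gene ID: GAPA (AT3G26650), GAPA2 (AT1G12900), GAPB (AT1G42970), CP12-1 (AT2G47400), CP12-2 (AT3G62410), PRK (AT1G32060), SBPASE (AT3G55800), HCEF1 (AT3G54050), PGK1 (AT3G12780) and TKL1 (AT3G60750). All 10 are among the 33602 gene IDs in the count files, and all 10 were among the 21449 genes tested. The rule is a list of IDs and uses no threshold on the counts, but the list was drawn up with earlier results of these data known. The libraries are 26 stranded mRNA libraries of whole Col-0 seedlings, the common laboratory accession, and no mutant or transgene is in the labels. They grew for 7 days without darkness at 22 °C and 60 µmol photons m-2 s-1, called growth light. Some plates then went to 1200 µmol photons m-2 s-1 (high light, leaf temperature 22 °C), while control plates stayed where they were. Both kinds were sampled after 0.5, 6, 12, 24, 48 and 72 h. Recovery seedlings had 72 h of high light followed by 14 h of growth light. There are 13 groups of 2 libraries, and RNA of 25 plants was pooled for each library, of which 4 µg was used.

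The Calvin cycle fixes carbon dioxide in the chloroplast stroma and spends the ATP and NADPH made in the thylakoids. It has a carboxylation step by Rubisco, a reduction phase in which phosphoglycerate kinase and glyceraldehyde-3-phosphate dehydrogenase make triose phosphate, and a regeneration phase that returns ribulose bisphosphate to Rubisco. Several of its enzymes are switched on in the light by thioredoxins, which reduce disulphide bonds. CP12 holds glyceraldehyde-3-phosphate dehydrogenase and phosphoribulokinase in an inactive complex when it is oxidised, and lets them go when it is reduced. The B subunit of the dehydrogenase carries a tail related to CP12, and the A subunit lacks it.

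In the reference annotation (TAIR10.1), GAPA lies on chromosome 3 from base 9794862 to 9797045, GAPB on chromosome 1 from 16127353 to 16129895 and GAPA2 on chromosome 1 from 4392438 to 4394454, the last on the minus strand. PGK1 lies on the minus strand of chromosome 3 from 4060920 to 4063306. HCEF1, SBPASE and TKL1 are on chromosome 3, at 20016837 to 20018822, 20709294 to 20711640 and 22453668 to 22457458. PRK is on chromosome 1 from 11532199 to 11534639. CP12-1 on chromosome 2, from 19446730 to 19447642, and CP12-2 on chromosome 3, from 23090944 to 23091580, each have 1 exon. Counts are 1 number per gene, so coding and UTR reads are not separated, and whether intron reads were counted is not given. The annotated ends of 3 genes overlap a gene on the opposite strand, by 33 bases for PRK, 167 for HCEF1 and 25 for PGK1. The strand setting of the counting is not given in the sources used here. No run of 50 bases of the spliced transcripts is shared between GAPA and GAPA2, between CP12-1 and CP12-2 or between GAPA and GAPB. Only exact matches were compared, and the read length is not given in the sources used here.

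Upstream windows of 250 bases, ending at the base before the annotated gene start, were read from the RefSeq TAIR10.1 genome, since several of these genes changed level together. Those of GAPA2, PRK and HCEF1 hold no other annotated gene and are given here. Capitals mark the G-box (CACGTG) or the I-box (GATAAG, or CTTATC on the other strand), elements known from light-regulated plant promoters, and all are written in the direction of transcription. GAPA2 is at chr1:4394455-4394704 on the minus strand, PRK at chr1:11531949-11532198 on the plus strand and HCEF1 at chr3:20016587-20016836 on the plus strand.
GAPA2: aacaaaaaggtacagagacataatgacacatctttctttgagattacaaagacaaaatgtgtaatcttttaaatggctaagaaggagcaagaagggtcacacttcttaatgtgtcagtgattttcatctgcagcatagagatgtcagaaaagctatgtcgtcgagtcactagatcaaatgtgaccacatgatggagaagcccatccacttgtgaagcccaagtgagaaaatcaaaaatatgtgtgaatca
PRK: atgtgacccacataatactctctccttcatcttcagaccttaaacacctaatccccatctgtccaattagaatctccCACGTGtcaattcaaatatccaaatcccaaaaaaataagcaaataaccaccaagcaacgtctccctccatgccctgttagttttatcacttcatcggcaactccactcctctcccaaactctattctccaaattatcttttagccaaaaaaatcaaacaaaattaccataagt
HCEF1: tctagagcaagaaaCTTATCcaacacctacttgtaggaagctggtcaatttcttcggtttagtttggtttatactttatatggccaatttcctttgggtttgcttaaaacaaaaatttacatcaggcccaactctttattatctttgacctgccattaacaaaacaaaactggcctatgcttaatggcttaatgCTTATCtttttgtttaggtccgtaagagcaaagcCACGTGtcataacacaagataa

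Over both strands, a G-box was found in the windows of PRK and HCEF1 and an I-box in those of CP12-2 and HCEF1. Of 27437 windows of protein-coding genes, 6.49% hold a G-box and 12.3% an I-box, and 0.922% hold both. Also searched were CCAATC (GLK motif, 10.2% of windows), AAATATCT (evening element, 4.79%) and AAACCCTA (telo box, 4.49%), and no member had any of them. The G-box begins 173 bases before the start of PRK and 22 bases before the start of HCEF1. These are letter matches only and say nothing of binding.

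Library totals ran from 13637677 to 29697279 counts, and the 10 genes together took 1.31 to 2.09% of them. Levels below are CPM (counts scaled to library size and TMM factors), with n = 2 libraries a group. Changes are log2 fold changes ± SE from edgeR's quasi-likelihood test, called when the adjusted p over all genes tested was below 0.05. Nothing in the labels ties the 2 libraries of a group to separate cultures, and the p-values therefore reflect only how far these samples differ, a spread that could be technical. As a check of the light labels, ELIP1 (AT3G22840), an early light-induced chlorophyll-binding protein gene, stood at 2546 CPM after 72 h of high light against 25.7 in growth light and 27.6 in recovery. All 4 mesophyll, 9 root and 6 shoot epidermis and stomatal markers had counts in every group, while the 4 seed storage markers summed to at most 1.77 CPM.

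The plates at 6 sampling times ask how high light changed these transcripts. In edgeR with TMM scaling no member passed the test at 0.5 h, when 21.8% of all genes did, and 1 had an unadjusted p below 0.05, GAPA2. With upper-quartile factors edgeR called GAPA2 (-0.24, adjusted p = 0.0314), and so did DESeq2 (-0.21, adjusted p = 0.0478). At 6 h 3 members were higher and 1 was lower, where 22.9% of all genes were higher and 18.2% lower. At 12 h 2 were higher and 4 lower, beside 24.1% and 21.1% of all genes. From 24 h on, every member called in this model was lower than in growth light, 6 at 24 h (23.9% of all genes), 9 at 48 h (23%) and 5 at 72 h (22.3%). In a model with only the groups compared, for which no share of all genes is given here, calls were added at 72 h. GAPB (0.15, adjusted p = 0.0066) and CP12-2 (0.22, adjusted p = 0.0008) were higher there, and HCEF1 was lower (-0.16, adjusted p = 0.0045). GAPA2 was lower at 5 of the 6 times, most at 48 h, where it was 2.27-fold below growth light. Dehydrogenase subunit GAPB went the other way at 6 and 12 h, as did SBPASE, the gene of sedoheptulose-bisphosphatase. RNA of whole seedlings was measured, so fewer cells of a type and less RNA per cell cannot be told apart.

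At 6 h the members' share of calls, 4 of 10, was close to the 41.1% of all genes called. The median log2 fold change of the members was -0.15, 0.15, -0.10, -0.24, -0.53 and -0.23 at the 6 times in order, and over all genes it stayed between -0.01 and 0.03. The 4 mesophyll markers are LHCB1.1, LHCB3, RBCS1A and RCA, of which RBCS1A and RCA are themselves genes of the cycle. At 48 h their summed CPM went from 36636 to 38123 in growth light to 21037 to 22631 in high light. Root markers went from 128 to 148 down to 90.1 to 94.8 in the same libraries. Of these 9 markers 6 were called lower and 1 higher, beside 23% and 24.5% of all genes. Shoot epidermis and stomatal markers summed to 667 to 673 and to 433 to 451 there. The mesophyll sum was also lower in high light at times when the members' calls differed. At 6 h, when 3 members were called higher and 1 lower, it was 34861.3 to 35270.5 in growth light and 23193.7 to 28794.5 in high light. At 72 h, with 5 members called lower, it was 33141 to 34242 and 21687 to 21967 in the same order. Of the 4 mesophyll markers 2 were called lower at 6 h, with log2 fold changes from -1.63 to -0.07, and 3 at 72 h. Among all genes 18.2% and 22.3% were lower at these times. The part of these markers in the members' changes was not tested.

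**Figure D1:**
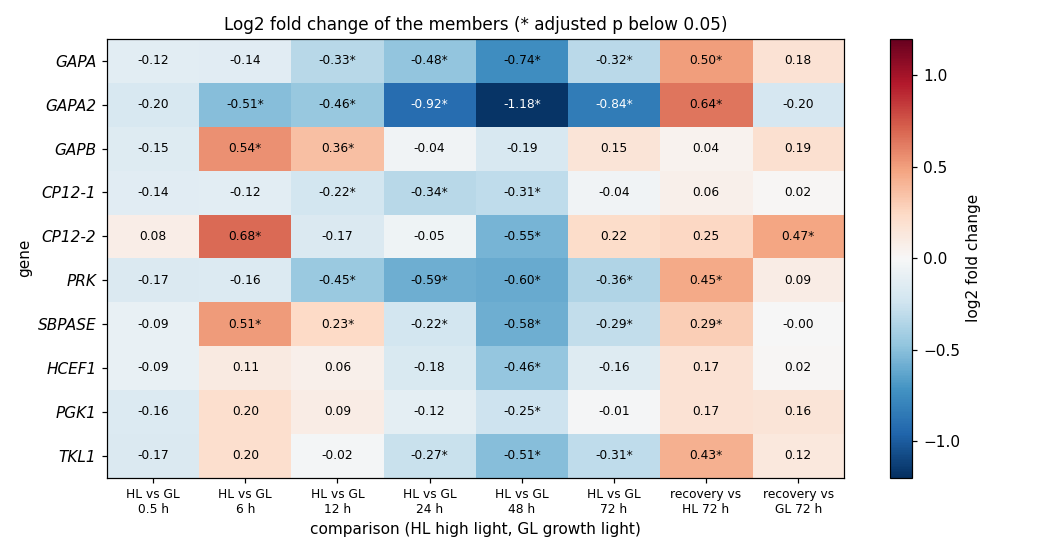
Log2 fold change of each of the 10 genes (rows) in high light against growth light (HL vs GL) at 6 times and in recovery against 72 h of high light or of growth light (columns), with colour and printed value giving the same quantity and a star an adjusted p below 0.05. GAPA2 is lower at every high light time from 6 h on, with -1.18 at 48 h, whereas GAPB and SBPASE are higher at 6 and 12 h.

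GAPA2 encodes an A subunit of the chloroplast glyceraldehyde-3-phosphate dehydrogenase. In growth light GAPA2 stood at 2376 and 2567 CPM at 0.5 h, 1902 and 2155 at 6 h, 1746 and 1978 at 12 h, 1978 and 2166 at 24 h, 2383 and 2310 at 48 h, and 2278 and 2269 at 72 h. In high light it stood at 2163 and 2151 CPM at 0.5 h, 1389 and 1465 at 6 h, 1420 and 1292 at 12 h, 1117 and 1077 at 24 h, 999.7 and 1071 at 48 h, and 1281 and 1254 at 72 h. Every high light library lay below both growth light libraries of its time. The GAPA2 log2 fold change was -0.20 ± 0.08 at 0.5 h (adjusted p = 0.107), -0.51 ± 0.08 at 6 h, -0.46 ± 0.08 at 12 h, -0.92 ± 0.08 at 24 h, -1.18 ± 0.09 at 48 h and -0.84 ± 0.08 at 72 h, with adjusted p from 2.43e-10 to 0.000117 at the 5 later times. The lowest high light level was that of 48 h, and at 72 h the level was above it but below growth light.

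GAPA encodes the other A subunit. Its growth light levels were 2991 and 2892 CPM at 0.5 h, 2020 and 2313 at 6 h, 2141 and 2483 at 12 h, 2422 and 2655 at 24 h, 2863 and 2859 at 48 h, and 2918 and 2922 at 72 h. Its high light levels were 2659 and 2742 CPM at 0.5 h, 1887 and 2044 at 6 h, 1914 and 1761 at 12 h, 1851 and 1796 at 24 h, 1680 and 1737 at 48 h, and 2331 and 2333 at 72 h. The groups overlapped only at 6 h, and high light was below growth light at the other 5 times. GAPA was lower, with -0.33 ± 0.08 at 12 h (adjusted p = 0.00283), -0.48 ± 0.08 at 24 h (adjusted p = 7.01e-05), -0.74 ± 0.09 at 48 h (adjusted p = 2.73e-07) and -0.32 ± 0.08 at 72 h (adjusted p = 0.0035). Without growth light replicate 2 at 12 h, the 12 h call was lost (-0.22, adjusted p = 0.0867).

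GAPB encodes the B subunit, the one with the CP12-like tail. In growth light GAPB had 2631 and 2918 CPM at 0.5 h, 2055 and 2154 at 6 h, 2274 and 2479 at 12 h, 2435 and 2790 at 24 h, 2954 and 3124 at 48 h, and 2796 and 2850 at 72 h. In high light it had 2434 and 2551 CPM at 0.5 h, 2849 and 3288 at 6 h, 3263 and 2854 at 12 h, 2479 and 2599 at 24 h, 2610 and 2702 at 48 h, and 3162 and 3120 at 72 h. High light libraries were above growth light at 6, 12 and 72 h, below it at 0.5 and 48 h, and overlapped it at 24 h. GAPB rose by 0.54 ± 0.10 at 6 h (adjusted p = 7.46e-05) and 0.36 ± 0.09 at 12 h (adjusted p = 0.00328), and was the single member not called at 48 h, with -0.19 ± 0.09 (adjusted p = 0.0979). With upper-quartile factors GAPB was called there as well (-0.22, adjusted p = 0.0439). The 12 h call was lost without growth light replicate 1 (0.30, adjusted p = 0.0507) or high light replicate 1 (0.27, adjusted p = 0.0714) of that time.

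PGK1 encodes a chloroplast phosphoglycerate kinase, which acts just before the dehydrogenase. Over the growth light groups its mean ran from 1723 to 2488 CPM and over the high light groups from 1937 to 2309. At 48 h it had 2433 and 2543 CPM in growth light, while the high light libraries had 2066 and 2128, without overlap, and there it fell by 0.25 on the log2 scale (± 0.09, adjusted p = 0.0251). That call was lost when any 1 of the 4 libraries of 48 h was left out (adjusted p from 0.0504 to 0.134). At the other times its log2 fold changes lay between -0.16 and 0.20, none past the test.

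The ratio of counts of 2 genes in a library does not depend on scaling, and 3 ratios were tested by permuting the light labels within each time (exact permutation test over 46656 arrangements, two-sided, smallest possible p 4.29e-05, adjusted over the 3). GAPA2 counts were 0.776 to 0.941 of GAPA counts in the 12 growth light libraries and 0.538 to 0.813 in the 12 high light libraries. These ranges overlap, through the 0.5 h libraries. On the log2 scale the high light minus growth light difference was -0.33 on average, negative at 6 of 6 times (adjusted p = 0.000257), with -0.07 at 0.5 h and -0.52 at 72 h. GAPB counts were 0.88 to 1.09 of GAPA counts in growth light and, from 6 h on, 1.34 to 1.71 in high light, with 0.916 and 0.93 at 0.5 h. Their mean log2 difference was 0.47, higher at 5 of 6 times (adjusted p = 0.000257). In recovery GAPB over GAPA was 0.945 and 1, within the growth light range, while GAPA2 over GAPA was 0.595 and 0.604, below all 12 growth light libraries.

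**Figure D2:**
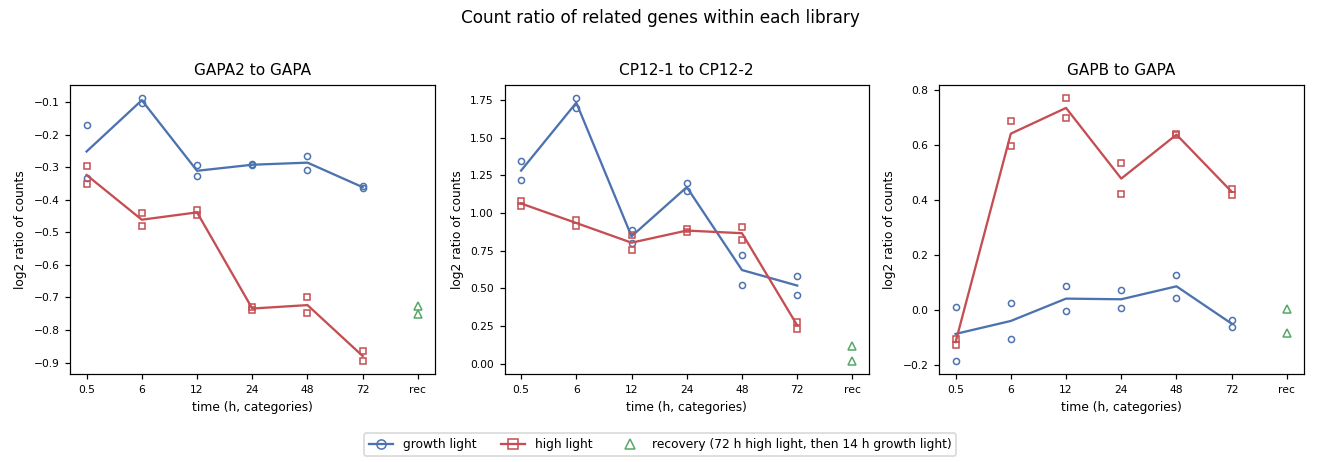
Log2 ratio of counts of GAPA2 to GAPA, CP12-1 to CP12-2 and GAPB to GAPA in each library (vertical axes, which differ between panels and do not start at 0) against time in h as categories, with points for libraries and lines through means of 2. GAPA2 over GAPA is lower in high light at every time, down to count ratios of 0.549 and 0.538 at 72 h, and GAPB over GAPA is higher from 6 h on.

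SBPASE encodes sedoheptulose-bisphosphatase, a thioredoxin-controlled step of the regeneration phase. In growth light SBPASE had 1446 and 1510 CPM at 0.5 h, 978.7 and 1130 at 6 h, 1189 and 1350 at 12 h, 1322 and 1484 at 24 h, 1609 and 1689 at 48 h, and 1640 and 1680 at 72 h. In high light it had 1389 and 1392 CPM at 0.5 h, 1428 and 1577 at 6 h, 1582 and 1406 at 12 h, 1207 and 1206 at 24 h, 1052 and 1148 at 48 h, and 1310 and 1397 at 72 h. High light was above growth light at 6 and 12 h and below it at the other 4 times, without overlap at any. It rose by 0.51 ± 0.09 at 6 h (adjusted p = 7.01e-05) and 0.23 ± 0.09 at 12 h (adjusted p = 0.0349), and was lower, with -0.22 ± 0.09 at 24 h (adjusted p = 0.0455), -0.58 ± 0.09 at 48 h (adjusted p = 1.26e-05) and -0.29 ± 0.09 at 72 h (adjusted p = 0.00969). SBPASE was thus higher at 6 and 12 h and lower from 24 h on, and at 0.5 h it had -0.09 ± 0.09 (adjusted p = 0.557).

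The SBPASE calls at 12, 24 and 72 h depended on single libraries. At 12 h the value was 0.15 without growth light replicate 1 (adjusted p = 0.311) and 0.15 without high light replicate 1 (adjusted p = 0.307), and the call was also lost at a filter of 1 CPM and with only the groups compared in the model. At 24 h it was -0.13 without growth light replicate 2 (adjusted p = 0.339), and not past the test without high light replicate 1 or 2 (adjusted p = 0.126 and 0.119) or with only the groups compared (adjusted p = 0.0754). At 72 h it was lost without growth light replicate 2 (-0.28, adjusted p = 0.0588) or high light replicate 1 (-0.26, adjusted p = 0.0807). Its calls at 6 and 48 h held without each library of their times.

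HCEF1 encodes the chloroplast fructose-bisphosphatase, the matching phosphatase earlier in regeneration. Its group means had the narrowest span of the 10 genes, from 671 CPM at 48 h of high light to 925 CPM at 48 h of growth light, a ratio of 1.38. At 48 h it stood at 923.5 and 926.8 CPM in growth light and at 670.3 and 672.7 in high light, far apart. There it fell by 0.46 on the log2 scale (± 0.09, adjusted p = 0.000253), and its values at the other 5 times, between -0.18 and 0.11, did not pass the test.

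TKL1 encodes transketolase, which moves carbon units between sugar phosphates in regeneration. In growth light TKL1 had 2998 and 2808 CPM at 0.5 h, 2544 and 2451 at 6 h, 3411 and 3634 at 12 h, 2651 and 3079 at 24 h, 3234 and 3438 at 48 h, and 2658 and 2545 at 72 h. In high light it had 2509 and 2647 CPM at 0.5 h, 2577 and 3158 at 6 h, 3558 and 3391 at 12 h, 2196 and 2552 at 24 h, 2257 and 2436 at 48 h, and 2027 and 2182 at 72 h. High light and growth light overlapped at 12 h, high light was above at 6 h, and it was below at the other 4 times. TKL1 was lower, with -0.27 ± 0.10 at 24 h (adjusted p = 0.028), -0.51 ± 0.10 at 48 h (adjusted p = 0.000243) and -0.31 ± 0.10 at 72 h (adjusted p = 0.0161). The 24 h call was lost without growth light replicate 2 (-0.16, adjusted p = 0.295), without high light replicate 1 (-0.17, adjusted p = 0.28) and with only the groups compared (adjusted p = 0.077). At 72 h the TKL1 call was lost without replicate 1 of growth light (-0.28, adjusted p = 0.0871) or of high light (-0.26, adjusted p = 0.116).

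PRK encodes phosphoribulokinase, the last enzyme of regeneration and a partner of CP12. In growth light PRK had 1819 and 1991 CPM at 0.5 h, 1460 and 1474 at 6 h, 1653 and 1766 at 12 h, 1507 and 1702 at 24 h, 1853 and 1816 at 48 h, and 1746 and 1751 at 72 h. In high light it had 1659 and 1721 CPM at 0.5 h, 1199 and 1420 at 6 h, 1315 and 1194 at 12 h, 1027 and 1111 at 24 h, 1166 and 1248 at 48 h, and 1341 and 1387 at 72 h. Each high light library lay below both growth light libraries of its time. PRK was lower, with -0.45 ± 0.09 at 12 h (adjusted p = 0.000213), -0.59 ± 0.09 at 24 h (adjusted p = 7.31e-06), -0.60 ± 0.09 at 48 h (adjusted p = 6.12e-06) and -0.36 ± 0.09 at 72 h (adjusted p = 0.00183). These 4 calls, like the 5 of GAPA2, held without each library of the times compared.

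CP12-1 and CP12-2 encode the 2 CP12 proteins of this set, and they did not follow a common course. CP12-1 had 533.8 and 595.5 CPM in growth light at 0.5 h, 510.8 and 505.1 at 6 h, 613.5 and 643 at 12 h, 471.2 and 518.9 at 24 h, 547 and 538.2 at 48 h, and 456.1 and 470.6 at 72 h. In high light CP12-1 had 514.3 and 512.8 CPM at 0.5 h, 441.4 and 492.1 at 6 h, 566.7 and 513.6 at 12 h, 367.7 and 416.5 at 24 h, 432.6 and 443.6 at 48 h, and 476 and 424.3 at 72 h. It was below growth light without overlap at all times but 72 h. CP12-1 was lower, with -0.22 ± 0.08 at 12 h (adjusted p = 0.0386), -0.34 ± 0.08 at 24 h (adjusted p = 0.0021) and -0.31 ± 0.08 at 48 h (adjusted p = 0.00449). Without replicate 1 or 2 of growth light or replicate 2 of high light the 12 h call was lost (adjusted p = 0.0654, 0.185 and 0.283, with -0.15 in the last), and without high light replicate 1 the 24 h call was (-0.25, adjusted p = 0.0516).

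CP12-2 in growth light had 229 and 234.6 CPM at 0.5 h, 150.2 and 155.3 at 6 h, 331.8 and 368.3 at 12 h, 205.6 and 234.2 at 24 h, 332.6 and 374.1 at 48 h, and 332.6 and 314.6 at 72 h. In high light CP12-2 had 242.8 and 248.6 CPM at 0.5 h, 227.6 and 261.5 at 6 h, 336.6 and 284 at 12 h, 200.8 and 224 at 24 h, 230.3 and 250.8 at 48 h, and 392.6 and 361.7 at 72 h. High light was above growth light at 0.5, 6 and 72 h, below it at 48 h, and overlapped it at 12 and 24 h. CP12-2 rose by 0.68 ± 0.10 at 6 h (adjusted p = 1.26e-05), fell by 0.55 on the log2 scale at 48 h (± 0.10, adjusted p = 0.000105), and had 0.22 ± 0.10 at 72 h (adjusted p = 0.0819). At 6 h its growth light level was the lowest of all 13 groups, at 153 CPM. The 6 h difference thus stood on a low control as well as on a high light level near that of 0.5 h.

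Counts of CP12-1 were 1.37 to 3.4 times those of CP12-2 in growth light libraries and 1.17 to 2.12 times in high light libraries. Their log2 ratio differed between high and growth light by -0.23 on average (adjusted p = 0.0128, exact permutation test). It was lower at 5 of 6 times, by up to -0.80 at 6 h, and higher by 0.24 at 48 h. In recovery the count ratio was 1.09 and 1.01, below all 24 other libraries.

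**Figure D3:**
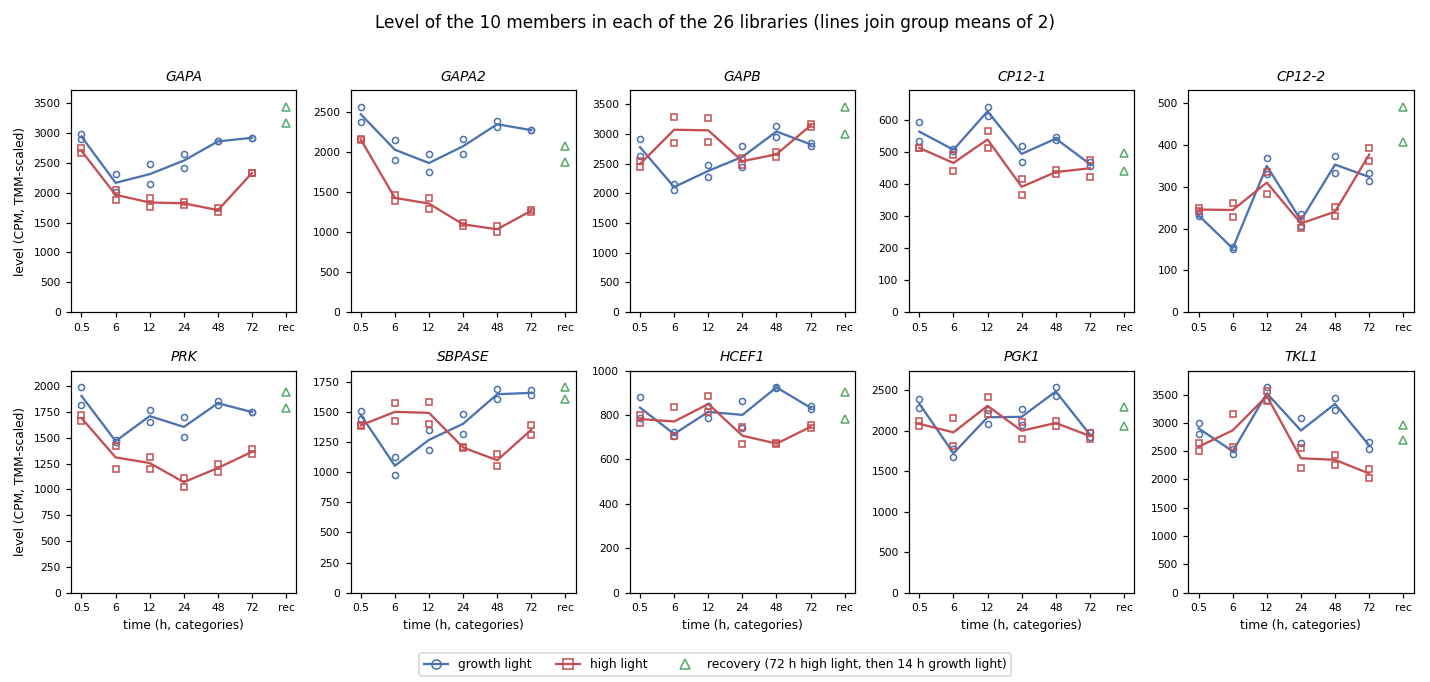
Level of each of the 10 genes in CPM (vertical axes from 0, scaled per gene) in all 26 libraries against time in h as categories, with open symbols for libraries and lines through the means of 2. GAPA2 and PRK in high light lie below growth light at every time, CP12-2 swings in growth light between 153 and 353 CPM, and HCEF1 stays within 671 and 925 CPM.

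Whether the light effect itself changed between neighbouring times was tested with interaction contrasts. From 0.5 to 6 h it rose for 4 members, where 14.8% of all genes rose, by 0.70 ± 0.13 for GAPB (adjusted p = 0.000395), 0.60 ± 0.14 for CP12-2 (adjusted p = 0.00318), 0.60 ± 0.13 for SBPASE (adjusted p = 0.000891) and 0.36 ± 0.12 for PGK1 (adjusted p = 0.0306). Their growth light means fell between these times, from 2775 to 2105 CPM (GAPB), 232 to 153 (CP12-2), 1478 to 1054 (SBPASE) and 2336 to 1723 (PGK1). Their high light means went from 2492 to 3068, 246 to 245, 1390 to 1503 and 2087 to 1981 CPM in the same order. From 6 to 12 h the light effect fell for CP12-2 by 0.85 on the log2 scale (± 0.14, adjusted p = 0.000587), against 5.69% of all genes. From 12 to 24 h, where 7.58% of all genes fell, it fell for GAPA2 (-0.46 ± 0.12, adjusted p = 0.012), SBPASE (-0.45 ± 0.13, adjusted p = 0.0182) and GAPB (-0.41 ± 0.13, adjusted p = 0.0451). CP12-2 moved down again from 24 to 48 h (-0.51 ± 0.14, adjusted p = 0.0226) and up from 48 to 72 h (0.78 ± 0.14, adjusted p = 0.0118), where 7.35% of all genes fell and 0.643% rose. Between 0.5 and 72 h, where 17.5% of all genes fell, the effect on GAPA2 fell by 0.65 (± 0.12, adjusted p = 0.000247). CP12-2 passed this test in 4 of the 5 neighbouring steps, the most of the 10 members. Steps that meet at a time share its libraries with opposite sign, here those of 6 h and of 48 h. These 4 calls are therefore not independent.

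Several of these interaction calls rested on single libraries. PGK1 lost its call without growth light replicate 2 of 0.5 or 6 h, either high light library of 0.5 h, or high light replicate 2 of 6 h (adjusted p from 0.0591 to 0.181), and with only the groups compared (adjusted p = 0.189). From 12 to 24 h all 3 calls were lost without growth light replicate 1 or high light replicate 1 of 12 h or growth light replicate 2 of 24 h (adjusted p from 0.0527 to 0.181). That of SBPASE was also lost without high light replicate 1 of 24 h (adjusted p = 0.0534), and that of GAPB without growth light replicate 2 of 12 h or either high light library of 24 h (adjusted p from 0.0572 to 0.135). The 24 to 48 h call of CP12-2 was lost without growth light replicate 1 or high light replicate 2 of 24 h, or growth light replicate 2 or high light replicate 1 of 48 h (adjusted p from 0.0897 to 0.121, values from -0.45 to -0.41). Its 48 to 72 h call was lost without growth light replicate 2 or high light replicate 1 of either time (adjusted p from 0.0646 to 0.088, values from 0.69 to 0.74).

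Recovery libraries show the level of each transcript 14 h after the return to growth light. Against 72 h of high light 5 members were higher, where 18.6% of all genes were, and against 72 h of growth light 1 was, where 5.03% of all genes were. GAPA had 3163 and 3444 CPM in recovery, GAPA2 1881 and 2080, PRK 1789 and 1941, SBPASE 1608 and 1709, and TKL1 2701 and 2970. All 10 of these values lay above both high light libraries of 72 h. The rises were 0.50 ± 0.08 for GAPA (adjusted p = 6.54e-05), 0.64 ± 0.08 for GAPA2 (adjusted p = 2.7e-06), 0.45 ± 0.09 for PRK (adjusted p = 0.000263), 0.29 ± 0.09 for SBPASE (adjusted p = 0.0123) and 0.43 ± 0.10 for TKL1 (adjusted p = 0.00166). At 72 h of high light against growth light the values of these 5 had been -0.32, -0.84, -0.36, -0.29 and -0.31 in the same order, and both comparisons share the 72 h high light libraries. The SBPASE call was lost without high light replicate 1 (0.25, adjusted p = 0.1) or recovery replicate 2 (0.26, adjusted p = 0.0887). Mesophyll markers summed to 21687 to 21967 CPM at 72 h of high light, 27061 to 30705 in recovery and 33141 to 34242 at 72 h of growth light, and their part in these changes was not tested.

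CP12-2 reached 406.4 and 492.1 CPM in recovery, the highest group mean of the 13 at 449 CPM. Both libraries lay above the growth light and the high light libraries of 72 h. Against growth light it rose by 0.47 ± 0.10 (adjusted p = 0.0036), and this call was lost without growth light replicate 2 (0.43, adjusted p = 0.0583) or recovery replicate 2 (0.33, adjusted p = 0.0979). Against high light its value was 0.25 ± 0.10 (adjusted p = 0.0539), and CP12-2 was called there under 6 alternatives that keep all libraries (upper-quartile factors, no filter, the 1 CPM filter, the replicate block, only the groups compared, and DESeq2), with adjusted p from 0.00649 to 0.0449. The other 9 members in recovery were between -0.20 and 0.19 from growth light on the log2 scale, none past the test, with GAPA2 at -0.20 ± 0.08 (adjusted p = 0.136). Recovery seedlings were 14 h older than these controls. With only the groups compared in the model, for which no share of all genes is given here, 5 members passed against growth light. GAPA2 was lower there (-0.20, adjusted p = 0.0126). GAPA (0.18, adjusted p = 0.0245), GAPB (0.19, adjusted p = 0.0235), PGK1 (0.16, adjusted p = 0.048) and CP12-2 were higher.

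The controls were not flat either. Over the 6 growth light times all 10 members differed, where 46.2% of all genes did, with adjusted p from 3.93e-08 for CP12-2 to 0.0445 for HCEF1. The 6 h group had the lowest growth light mean for 8 of the 10, the exceptions being CP12-1, lowest at 72 h, and GAPA2, lowest at 12 h. Between 0.5 and 72 h, CP12-2 rose by 0.48 ± 0.10 (adjusted p = 0.00301), where 6.17% of all genes rose, and CP12-1 fell by 0.29 on the log2 scale (± 0.08, adjusted p = 0.0269), where 8.09% fell. The CP12-1 call was lost without growth light replicate 2 of 0.5 h (-0.20, adjusted p = 0.202), without either library of 72 h (adjusted p = 0.169 and 0.102) and with only the groups compared (adjusted p = 0.0968). Light at matched times was therefore compared within each time.

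Levels of different genes were compared per kb of coding length. Counts also hold UTR reads, so this divisor places genes with long UTRs higher. CP12-1, with 1 exon from 19446730 to 19447642, has a coding length of 375 bases. An order per kb of transcript was not made, and it could differ from the one below. In growth light at 0.5 h the order in CPM per kb was GAPA 2470, GAPB 2064, GAPA2 1864, PGK1 1616, PRK 1603, CP12-1 1506, TKL1 1304, SBPASE 1250, HCEF1 665 and CP12-2 585. The libraries of PGK1 and PRK, of PRK and CP12-1, and of TKL1 and SBPASE overlapped. At 72 h of high light GAPB led with 2337 CPM per kb, ahead of GAPA with 1958, and PGK1 followed with 1339. GAPA2, CP12-2 and TKL1 then stood at 956, 952 and 946 CPM per kb and overlapped. In growth light at the same time GAPA2 had 1714 CPM per kb, below GAPA and GAPB alone, while TKL1 had 1169 and CP12-2 had 817. HCEF1 was last in both, with 596 in high light and 664 in growth light. In recovery the order began again with GAPA at 2773 and GAPB at 2399 CPM per kb, and GAPA2 at 1494 overlapped both PGK1 and SBPASE.

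Over the 13 group means, CP12-2 spanned the widest range, 2.94-fold, followed by GAPA2 with 2.39-fold and GAPA with 1.93-fold. As a description over these 13 points, which share libraries and scaling, the log2 levels of GAPA and PRK had a Pearson correlation of 0.93, GAPA2 and PRK 0.92, GAPA and GAPA2 0.85, and SBPASE and HCEF1 0.85. The lowest were GAPB with CP12-1 at -0.18 and GAPB with GAPA2 at -0.12, and CP12-1 with CP12-2 had 0.15. Against the mean of the other 9 members, HCEF1 correlated highest at 0.93 and GAPB lowest at 0.35.

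Beside these 10, the other 15 listed genes of the cycle, Rubisco small subunits and Rubisco activase among them, had the most lower calls at 48 h. Of these 15, 7 were higher and 1 lower at 6 h, 4 higher and 4 lower at 12 h, 1 higher and 11 lower at 48 h, and 2 higher and 5 lower at 72 h. The 5 called at 24 h and the 4 called at 0.5 h were lower. Among all genes 22.9% were higher and 18.2% lower at 6 h, and 24.1% and 21.1% at 12 h. At 48 h the shares were 24.5% and 23%, and at 72 h 22.3% each. At 24 h 23.9% of all genes were lower, and at 0.5 h 1779 of 21449 were. At 24 h RBCS2B (AT5G38420), a Rubisco small subunit gene, was at 1212 CPM against 2900 (-1.26 ± 0.13, adjusted p = 3.16e-08). At 48 h RBCS1B (AT5G38430) was at 811 CPM against 1729 (-1.09 ± 0.14, adjusted p = 1.1e-06), and RCA (AT2G39730), Rubisco activase, at 6174 against 12912 (-1.06 ± 0.11, adjusted p = 5.72e-08). Reads of the small subunit genes may be split among their close copies. The plastid fructose-bisphosphatase gene cFBP2 (AT5G64380) was lower at 6 h, at 12.8 CPM against 23.7 (-0.89 ± 0.08, adjusted p = 1.05e-08).

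The list called glycolytic counterparts holds mostly cytosolic enzymes of matching reactions. It includes cyFBP (AT1G43670), a fructose-bisphosphatase, so not all of its genes serve sugar breakdown. Of 13, 8 were higher at 6 h, 9 were higher and 3 lower at 12 h, 7 higher and 3 lower at 24 h, 3 higher and 4 lower at 48 h, and 4 higher and 3 lower at 72 h. Among all genes 22.9% were higher at 6 h, 24.1% at 12 h, 26% at 24 h, 24.5% at 48 h and 22.3% at 72 h. The shares lower were 21.1% at 12 h, 23.9% at 24 h, 23% at 48 h and 22.3% at 72 h. GAPC1 (AT3G04120), a cytosolic glyceraldehyde-3-phosphate dehydrogenase, stood at 2587 CPM against 1198 at 24 h (1.11 ± 0.08, adjusted p = 1.16e-10). The aldolase gene FBA6 (AT2G36460) was at 269 CPM against 110 at 24 h (1.29 ± 0.08, adjusted p = 1.2e-11), while FBA5 (AT4G26530) was at 56.8 against 223 at 72 h (-1.97 ± 0.15, adjusted p = 4.63e-10). GAPCP2 (AT1G16300), a plastid glycolytic dehydrogenase, was at 25.7 CPM against 11.8 at 12 h (1.12 ± 0.11, adjusted p = 2.71e-08). The medians of this list, 0.34 at 6 h and 0.21 at 24 h, stood beside 0.15 and -0.24 for the members. A difference between the lists was not tested.

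Among 9 redox regulators of the cycle, TRXF2 (AT5G16400), an f-type thioredoxin, fell most, to 24.1 CPM against 103 at 6 h (-2.10 ± 0.08, adjusted p = 5.22e-14), and was lower at all 5 times from 6 h on. Its relative TRXF1 (AT3G02730) had 255 against 331 CPM at 12 h (-0.38 ± 0.09, adjusted p = 0.000958). FTRA2 (AT5G08410), a subunit of ferredoxin-thioredoxin reductase, was at 84 CPM against 45.7 at 6 h (0.88 ± 0.11, adjusted p = 1.48e-06), and NTRC (AT2G41680), an NADPH-dependent thioredoxin reductase, at 151 against 214 at 48 h (-0.50 ± 0.07, adjusted p = 5.53e-06). Counts over this list were 4 higher and 1 lower at 6 h, 1 higher and 3 lower at 12 h, 1 higher and 4 lower at 48 h, and 2 higher and 2 lower at 72 h, and the 3 called at 24 h were lower. All-gene shares at 48 h were 24.5% higher and 23% lower, and at 6 h 22.9% and 18.2%. At 12 h they were 24.1% and 21.1%, at 72 h 22.3% each, and at 24 h 23.9% of all genes were lower.

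Of 6 genes of triose phosphate export and end products, 2 to 4 were higher and 1 to 3 lower at each time from 6 h on, times at which 22.3 to 26% of all genes were higher and 18.2 to 23.9% lower. TPT (AT5G46110), the triose phosphate transporter of the chloroplast envelope, was at 645 CPM against 1334 at 48 h (-1.05 ± 0.10, adjusted p = 1.09e-08). SPSA1 (AT5G20280), a sucrose phosphate synthase, was at 369 CPM against 127 at 6 h (1.54 ± 0.10, adjusted p = 1.05e-10), while SPSC (AT4G10120), another, was at 159 against 275 at 12 h (-0.79 ± 0.12, adjusted p = 1.42e-05). ADG1 (AT5G48300), a subunit of the enzyme that begins starch synthesis, was at 933 CPM against 559 at 48 h (0.74 ± 0.08, adjusted p = 1.87e-07). Export and end product genes thus held members of both directions.

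**Figure D4:**
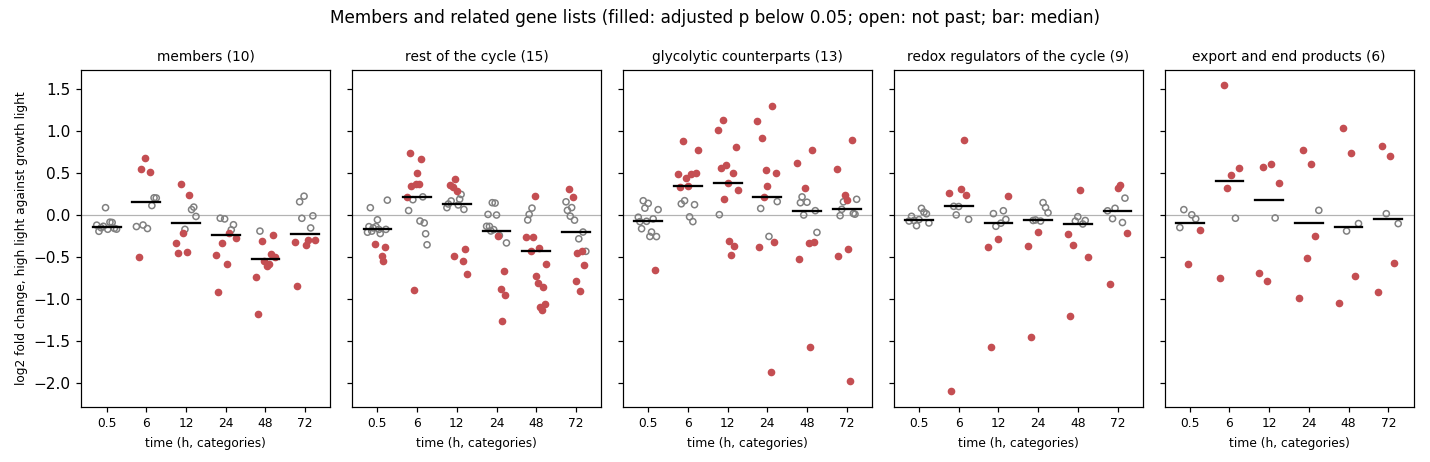
Log2 fold change in high light against growth light (vertical axis) at 6 times (categories, h) for the 10 members and 4 lists of related genes, with 1 point per gene, filled where the adjusted p was below 0.05, and a bar at the list median. Members and the rest of the cycle have their lowest medians at 48 h, -0.53 and -0.43, where the glycolytic counterparts have 0.05.

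Among 15329 tested genes with a mean of at least 5 CPM, those whose 13 group means ran most like the mean of the members were AT1G11860, annotated as a glycine cleavage T-protein (r = 0.97), AT1G80380, a P-loop nucleoside triphosphate hydrolase (r = 0.95), the uncharacterised AT4G13500 (r = 0.94) and AT3G22210 (r = 0.93), and RBCS2B (r = 0.93). For CP12-1 the most alike were AT5G66770, a GRAS family transcription factor (r = 0.91), AT2G41980, with RING/U-box and TRAF-like domains (r = 0.91), and PDF2 (AT4G04890, r = 0.89). These are correlations over 13 points chosen as the highest of many, given as a description.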

How the data were processed

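Whole-seedling RNA was sequenced as 26 stranded mRNA libraries in single-end runs, per the labels' protocols. The deposited files give counts per gene as whole numbers, 1 library per file, without normalization. The submitters' processing notes name TopHat2 2.1.1, HTSeq 0.6.0, edgeR and the TAIR10 build. What each did, with which settings and strand option, is not given in the sources used here. The count files hold no coordinates, so positions and sequences come from RefSeq TAIR10.1.

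Groups follow the labelled light and time. The analysis ran in R 4.3.3 with edgeR 4.0.16. The filterByExpr function (minimum count 10) kept 21449 genes, and TMM factors were 0.924 to 1.09. A mean for each of the 13 groups was estimated from the 26 libraries together, leaving 13 residual degrees of freedom; the biological coefficient of variation was 6.54%. Each comparison is a contrast in edgeR's quasi-likelihood model, adjusted by Benjamini-Hochberg over the genes tested, with a threshold of 0.05. Its SE is the size of the log2 fold change over the square root of F. Correlations over group means were taken on log2 CPM (prior count 2), and ratios on the counts as deposited, with 0.5 added as an alternative. The script was tested on simulated data. Totals of 13637677 to 29697279 counts set the counting error, and the 10 genes took at least 1.31% of each. Replicates differed by more than sampling noise in every group.

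The members and the lists were chosen with earlier results of these data known. All 10 members are named, as are up to 4 called genes with the largest change from each of 4 related lists, ELIP1, and the genes with the most similar pattern. Alternatives were the Wald test of DESeq2 1.42.0, RLE or upper-quartile scaling, leaving the filter off, a filter of 1 CPM in 2 libraries, a block for the replicate number, models with only the groups compared, and leaving out each library. The results above use all libraries. The upstream window of 1 member is not reported here.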

Additional observations from a re-analysis of the deposited data

Results flagged for a closer look

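The results below come from a test of the difference between the light effects of 2 times (an interaction contrast in edgeR), and each passed it after adjustment over all genes tested. From 0.5 to 6 h the light effect rose by 0.70 on the log2 scale for GAPB, 0.60 for CP12-2, 0.60 for SBPASE and 0.36 for PGK1. From 6 to 12 h the value for CP12-2 was -0.85. From 12 to 24 h GAPA2 had -0.46, GAPB -0.41 and SBPASE -0.45. CP12-2 had -0.51 from 24 to 48 h and 0.78 from 48 to 72 h. Steps that meet at a time share its libraries, so their calls are not independent. Between 0.5 and 72 h GAPA2 had -0.65. In growth light CP12-2 stood at 150.2 and 155.3 CPM at 6 h and at 331.8 and 368.3 CPM at 12 h, so its changes of effect include a change of the control. The growth light means of GAPB, SBPASE and PGK1 also fell from 0.5 to 6 h, and the high light mean of PGK1 fell as well. The calls at 6 to 12 h and at 0.5 to 72 h, and those of GAPB, CP12-2 and SBPASE from 0.5 to 6 h, held without each library of the times compared. Causes were not tested.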

How the results depend on the processing

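The 36 called member values of the high light and recovery comparisons kept their sign under every alternative run, while 12 lost their call without at least 1 library and 3 in an alternative that keeps all libraries. Upper-quartile factors and DESeq2 each called 1 member at 0.5 h, GAPA2 in both (adjusted p = 0.0314 and 0.0478). Upper-quartile factors also called PRK at 6 h (adjusted p = 0.0422), HCEF1 at 24 h (0.0161) and GAPB at 48 h (0.0439). From 24 to 48 h 2 members were called without a filter, with the replicate block and with DESeq2, and from 48 to 72 h 2 without a filter and with DESeq2. With only the groups compared the counts were 8 at 72 h, 5 for recovery against growth light, 1 for growth light 72 against 0.5 h, 1 from 12 to 24 h, 5 from 48 to 72 h and 2 from 0.5 to 72 h, the last also 2 with DESeq2. No share of all genes is given here for the models with only the groups compared. The causes were not tested. Leaving out 1 library gave counts of 0 to 0 at 0.5 h, 4 to 6 at 6 h, 3 to 5 at 12 h, 3 to 7 at 24 h, 8 to 8 at 48 h, 3 to 5 at 72 h, 4 to 6 for recovery against high light, 0 to 1 against growth light, 9 to 10 over the growth light times and 1 to 2 for 72 against 0.5 h. The lowest counts arose without growth light replicate 1 at 12 h (3), high light replicate 1 at 24 h (3) and high light replicate 1 at 72 h (3). Changes of effect ranged over 3 to 5 (0.5 to 6 h), 1 to 2 (6 to 12 h), 0 to 3 (12 to 24 h), 0 to 2 (24 to 48 h), 0 to 1 (48 to 72 h) and 1 to 1 (0.5 to 72 h). The mean log2 ratios ranged from -0.34 to -0.31 (GAPA2 to GAPA), -0.24 to -0.21 (CP12-1 to CP12-2) and 0.45 to 0.48 (GAPB to GAPA). Sign changes touched only values not past the test. SBPASE in recovery against growth light was 0.015 at the 1 CPM filter and 0.00073 with only the groups compared. With single libraries left out, the values ranged from -0.018 to 0.23 (HCEF1, 6 h), -0.065 to 0.027 (TKL1, 12 h), -0.14 to 0.062 (GAPB, 24 h), -0.14 to 0.049 (CP12-2, 24 h), -0.13 to 0.030 (CP12-1, 72 h) and -0.046 to 0.0036 (PGK1, 72 h). In recovery against high light they ranged from -0.065 to 0.14 (GAPB) and -0.022 to 0.15 (CP12-1), and against growth light from -0.073 to 0.098 (CP12-1), -0.048 to 0.038 (SBPASE) and -0.090 to 0.11 (HCEF1). Upper-quartile factors moved the split of all genes called by over 10 percentage points, to 2583 higher and 2393 lower at 0.5 h (TMM 2892 and 1779) and 4405 and 6161 at 24 h (TMM 5568 and 5117). The replicate numbers showed no pairing common to all groups. Deviations of same-numbered libraries correlated at -0.27 to 0.33 (median -0.01) over 78 pairs of groups, 14 of them over 0.1. Whether some of the groups were paired was not tested. Depth limits CP12-2 most, whose counts were the lowest of the 10.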
